A study of Mus musculus with 4 samples.

Results

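Chromatin immunoprecipitation followed by sequencing (ChIP-seq) peaks were described at 2 mouse loci, a window of 800 kb around Epha7 (chr4:28600000-29400000 in mm9) and a window of 650 kb around Tmeff2 (chr1:50700000-51350000 in mm9). A peak belonged to a window when its summit, the position of highest tag density, lay inside it. This placed 92 peaks of the 125330 on chromosomes 1 to 19 and X in the windows, 40 at Epha7 and 52 at Tmeff2. The windows were chosen from these lists, because stretches of 100 kb in them held many EGFP_OK peaks and few Pax6 or Etv6 peaks, so the peak numbers and the overlaps between the FLAG lists are given as descriptions, with no test.

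The cells were neural progenitor-like cells of strain 129/SvJ derived from embryonic stem (ES) cells and used at passages 15 to 18, and the labels name no genotype, agent or dose beyond the titles. In 3 libraries the FLAG antibody M2 was used, which binds a short peptide tag fused to a protein. The titles of 2 of these name Pax6, a paired-box and homeobox factor of the developing eye and brain, and Etv6, an ETS-family factor known as a repressor, together with NS. The remaining FLAG title names N31, EGFP and OK. It is called EGFP_OK here, and the labels do not say which protein carries its tag. An antibody against dimethylated lysine 4 of histone H3 (H3K4me2), a mark of promoters and enhancers, was used in 1 library, whose title names N31, Oct4, EGFP and 0 hr. The labels do not say that the mark was measured in the cells of any FLAG library. Marked and unmarked below refer to that H3K4me2 library alone. There was 1 library per group and no control library, so replicate error is unknown throughout, and tagged proteins cannot be told apart from N31 against NS cells as the source of a difference.

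Epha7 encodes a receptor tyrosine kinase of the Eph family. Eph receptors bind ephrins, ligands anchored in the membrane of neighbouring cells, and Eph and ephrin signalling guides axons, forms maps between brain regions and sets boundaries between groups of cells. Tmeff2 encodes a transmembrane protein whose outer part carries an EGF-like domain and follistatin-like domains, the latter a fold known from proteins that bind growth factors of the TGF-beta family. Both genes are active in the nervous system. In the RefSeq table of assembly GRCm38.p6, Epha7 (gene ID 13841) lies between the protein-coding genes Manea, 2470 kb away, and Map3k7, 3000 kb away. Tmeff2 (gene ID 56363), 287 kb long, lies between Slc39a10, 3970 kb away, and Cavin2, only 102 kb away. In what follows, at Tmeff2 means inside its window, and whether that window reaches Cavin2 was not tested. The lists are in mm9, another build, so no peak was assigned to a promoter, exon, intron or UTR.

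The start regions of both genes are shown because they identify the genes that the windows are named for. The sequences run 5′ to 3′ on the plus strand, from 250 bases before to 50 bases after a RefSeq start, in GRCm38.p6 (chr4:28812881-28813180 for Epha7 and chr1:50927273-50927572 for Tmeff2), and capitals mark CpG dinucleotides.
Epha7: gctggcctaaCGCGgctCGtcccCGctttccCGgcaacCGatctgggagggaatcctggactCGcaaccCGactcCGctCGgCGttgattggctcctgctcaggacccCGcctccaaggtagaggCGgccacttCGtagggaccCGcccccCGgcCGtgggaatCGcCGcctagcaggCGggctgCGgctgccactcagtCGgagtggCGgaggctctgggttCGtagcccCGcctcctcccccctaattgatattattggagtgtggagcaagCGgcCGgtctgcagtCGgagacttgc
Tmeff2: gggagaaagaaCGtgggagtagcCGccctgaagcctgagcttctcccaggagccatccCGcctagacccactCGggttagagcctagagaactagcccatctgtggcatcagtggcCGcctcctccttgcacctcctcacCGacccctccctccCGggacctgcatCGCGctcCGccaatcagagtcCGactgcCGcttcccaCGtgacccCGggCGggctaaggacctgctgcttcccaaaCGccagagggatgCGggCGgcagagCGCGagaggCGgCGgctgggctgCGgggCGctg
The Epha7 sequence held 28 CpG dinucleotides and the Tmeff2 sequence 24, against a median of 7 over the 32851 start regions of the table, and 14.2% and 19.98% of these held as many. An ETS-type motif, searched as CCGGAAGT on both strands, was found in neither sequence and in 3.89% of all start regions. Another Epha7 start region, chr4:28812895-28813194, is not printed. It held 27 CpG dinucleotides, 15.52% of start regions held as many, and it had no such motif. Peak positions and these sequences are of different builds, so no peak was laid on them.

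The libraries differed less in total tags than in tags kept. Total tags numbered 35255051 for EGFP_OK, 27560633 for Pax6, 31059965 for Etv6 and 29371583 for H3K4me2. Of these 39%, 81%, 22% and 16% were redundant, in that order. After removal of duplicates the EGFP_OK library kept 21498324 tags, Pax6 5288154, Etv6 24071748 and H3K4me2 24550365. The weakest called peak held 19 EGFP_OK tags, 10 Pax6 tags, 18 Etv6 tags or 17 H3K4me2 tags. Where a list holds no peak, occupancy under its calling limit was therefore not detectable.

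EGFP_OK peaks were the most numerous class at each locus. The Epha7 window held 20 EGFP_OK, 5 Pax6, 6 Etv6 and 9 H3K4me2 peaks, and the Tmeff2 window 22, 5, 8 and 17 in that order. Per Mb, EGFP_OK peaks numbered 25.0 at Epha7 and 33.8 at Tmeff2, against 11 over the 25764 windows of 100 kb that tile the covered chromosomes, which is 2.27 and 3.08 times as many. Read over the whole windows, the other factors were scarce only in part. Pax6 peaks were at 0.97 times their genome density at Epha7 and at 1.19 times at Tmeff2. Etv6 peaks were at 0.625 times and 1.03 times. H3K4me2 peaks, which the choice of windows did not use, were at 0.586 times their genome density at Epha7 and at 1.36 times at Tmeff2.

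The EGFP_OK peaks were gathered in a few stretches. At Epha7, 9 lay between 29000001 and 29100000, and 2 of the 25764 windows (0.00776%) held at least 9. A further 5 lay between 28800001 and 28900000, and 2.82% of windows held at least 5. At Tmeff2, 8 lay between 50900001 and 51000000, and 21 windows (0.0815%) held at least 8. The stretch from 51100001 to 51200000 held 5. Pax6 and Etv6 had at most 2 and 3 peaks in any of these stretches. Only 50% of the stretch from 51300001 to 51400000 lies in the Tmeff2 window. That whole stretch held 5 EGFP_OK, 2 Pax6 and 4 Etv6 peaks, of which 2 EGFP_OK and 2 Etv6 peaks lay inside. Because stretches dense in EGFP_OK peaks were what drew attention to the loci, the percentages describe the choice and support nothing.

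**Figure D1:**
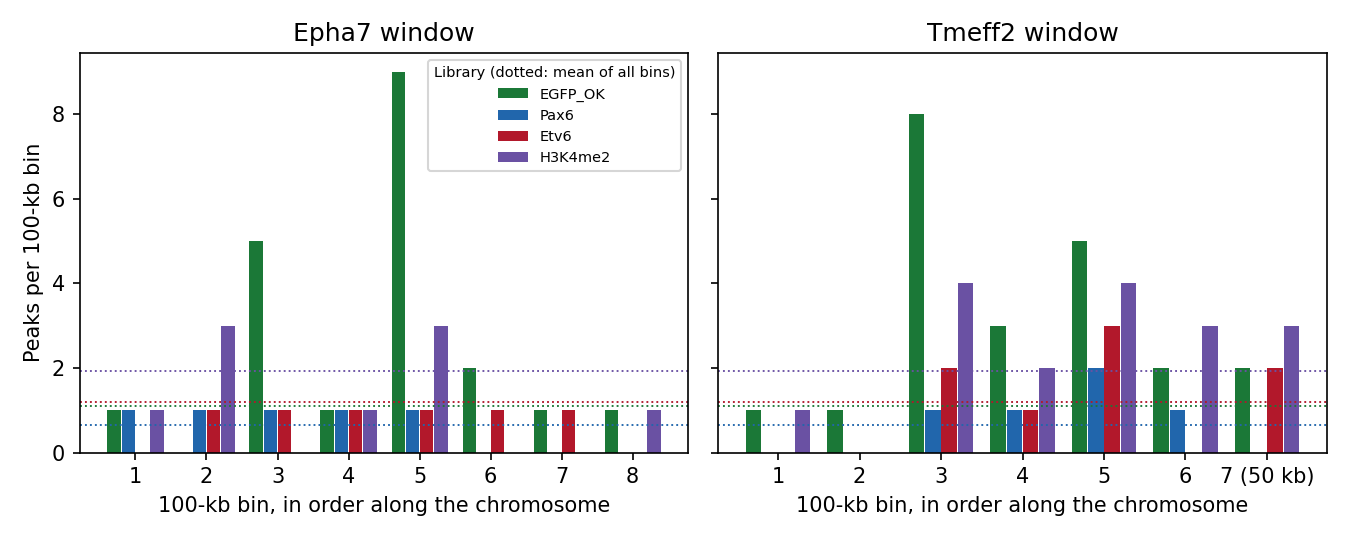
Peaks per 100-kb bin (y axis) along the Epha7 and Tmeff2 windows (x axis, bins in chromosome order), 1 bar per library, with the mean of all 25764 bins dotted in the library's colour. Bin 7 at Tmeff2 has 50 kb inside the window, and only peaks inside are counted. EGFP_OK reaches 9 in bin 5 at Epha7 and 8 in bin 3 at Tmeff2.

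Neighbouring EGFP_OK summits were a median of 20.1 kb apart at Epha7 (from 2.45 to 194 kb) and 16.3 kb apart at Tmeff2 (from 4.21 to 91.4 kb), against 39.1 kb over the list. Linking summits at most 10 kb apart gave 1 cluster of 7 summits at Epha7, which spanned 36.2 kb from 29010017 to 29046202, and a pair at 28840996 and 28848408. At Tmeff2 it gave a cluster of 4 summits over 23.2 kb, from 50970604 to 50993806, a cluster of 3 over 11.3 kb, from 51142928 to 51154202, and a pair at 50918630 and 50925784. The remaining 11 peaks at Epha7 and 13 at Tmeff2 stood alone. Summits in clusters of at least 3 made up 35.0% of the Epha7 peaks and 31.8% of the Tmeff2 peaks, and 6.0% of the whole list, a measure the choice of windows had already used. At Tmeff2 no cluster of at least 3 was left with scores of at least 100 or with lists of equal length, and linking at 5 kb left 0 such clusters at either locus. The nearest EGFP_OK summits outside lay 101 kb before and 64.8 kb after the Epha7 window, with 37 and 24 tags. Outside the Tmeff2 window they lay 162 kb before it, with 212 tags, and 18.8 kb after it, with 48 tags.

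**Figure D2:**
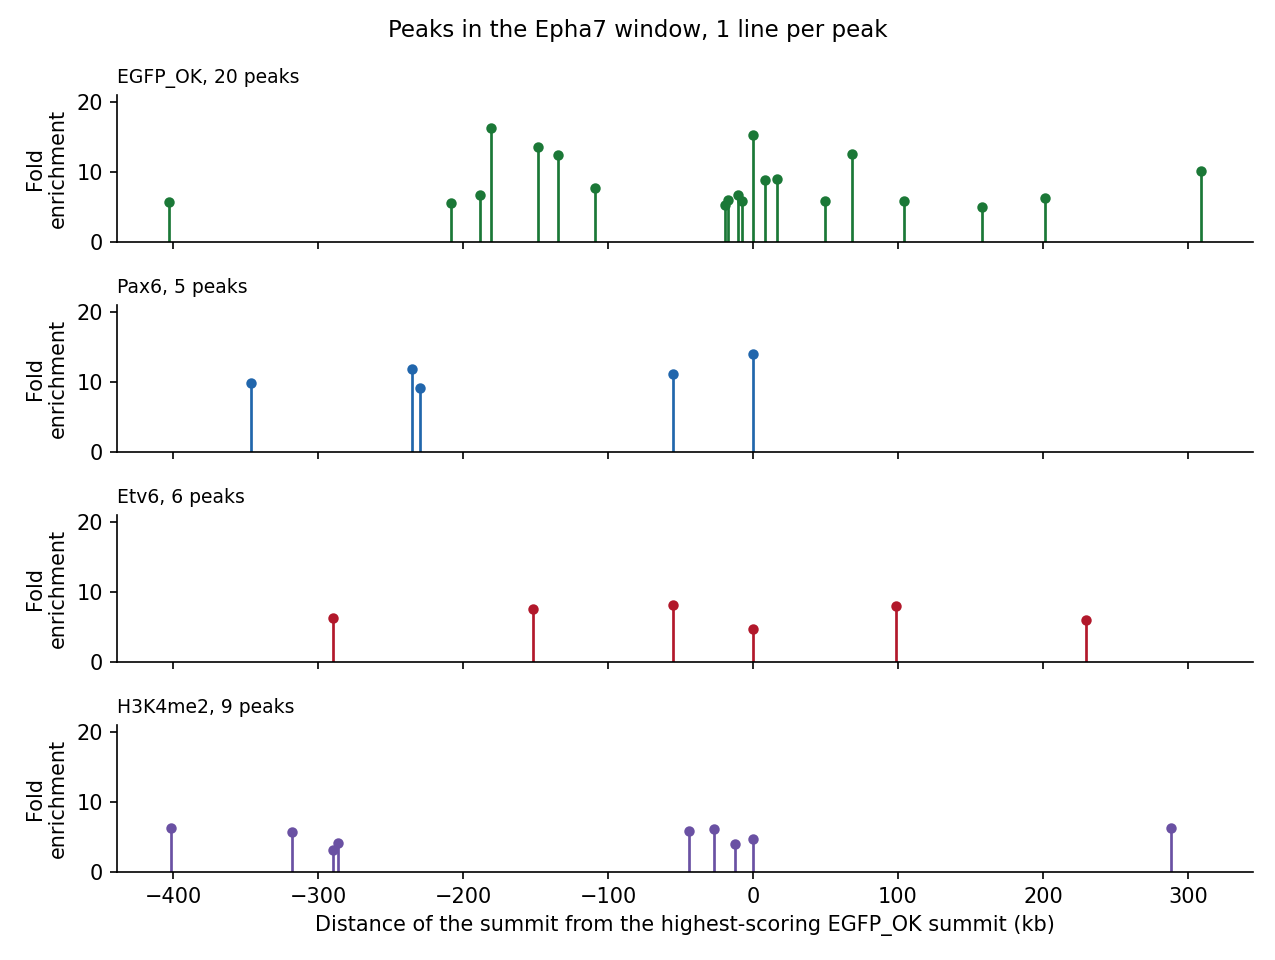
Peaks in the Epha7 window by library, with the distance of each summit from the highest-scoring EGFP_OK summit (29029439) in kb on the x axis and the authors' fold enrichment on the y axis, 1 line per peak. All 4 libraries have a peak near 0 kb, and 16.24-fold is the highest EGFP_OK value, at -181.0 kb.

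The 7 summits of the Epha7 cluster held very unequal peaks. In chromosome order they had 157, 187, 393, 123, 282, 43 and 41 tags. The fold enrichments, the authors' ratio of summit height over nearby background, were 5.27, 5.99, 6.78, 5.82, 15.31, 8.82 and 8.96 in the same order. The peak with most tags, 393, lay at chr4:29016519-29019593, was 3075 bp wide and reached 6.78-fold. The fifth, at chr4:29028509-29030307, had the highest score of either locus, 843.82, which placed it at rank 50 of 28338 EGFP_OK peaks, in the highest 0.176%. The score is the −log10 of the MACS p-value times 10.

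That site was also the only one in the 2 windows where all 4 lists overlapped. EGFP_OK had 282 tags there, Pax6 33 (14.07-fold), Etv6 41 (4.77-fold) and H3K4me2 152 (4.79-fold). Per 1000000 kept tags these were 13.1, 6.24, 1.70 and 6.19, each over the extent of its own peak. The site was thus strong in EGFP_OK and weak in Etv6, where 89.5% of the list ranked as high or higher. The Pax6 peak there was the highest-scoring Pax6 peak of the Epha7 window. From the EGFP_OK summit at 29029439 the Etv6 summit lay 154 bp away, the Pax6 summit 267 bp and the H3K4me2 summit 329 bp.

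Outside the cluster, 4 further EGFP_OK peaks at Epha7 had at least 100 tags, and all 4 had high folds. The peak at chr4:28847523-28849049 had 140 tags at 16.24-fold, the highest fold of either locus. The others were chr4:28880521-28882170 (169 tags, 13.64-fold), chr4:28894138-28895714 (173 tags, 12.39-fold) and chr4:29097099-29099183 (192 tags, 12.65-fold). These 4 ranked in the highest 1.51% to 2.67% of the EGFP_OK list. None overlapped a Pax6, Etv6 or H3K4me2 peak, and the nearest H3K4me2 peak was between 67078 and 104471 bp from their summits. Inside the cluster, 4 of the 5 peaks with at least 100 tags had folds of 5.27 to 6.78. The fold sets a summit against tags within up to 10 kb, per the file headers, and the part that neighbouring peaks have in the lower folds was not tested.

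The remaining EGFP_OK peaks at Epha7 were weaker. There were 9 outside the cluster, with 22 to 54 tags and 4.97-fold to 10.23-fold. A long stretch without any ran from 28626526 to 28820846, over 194 kb.

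**Figure D3:**
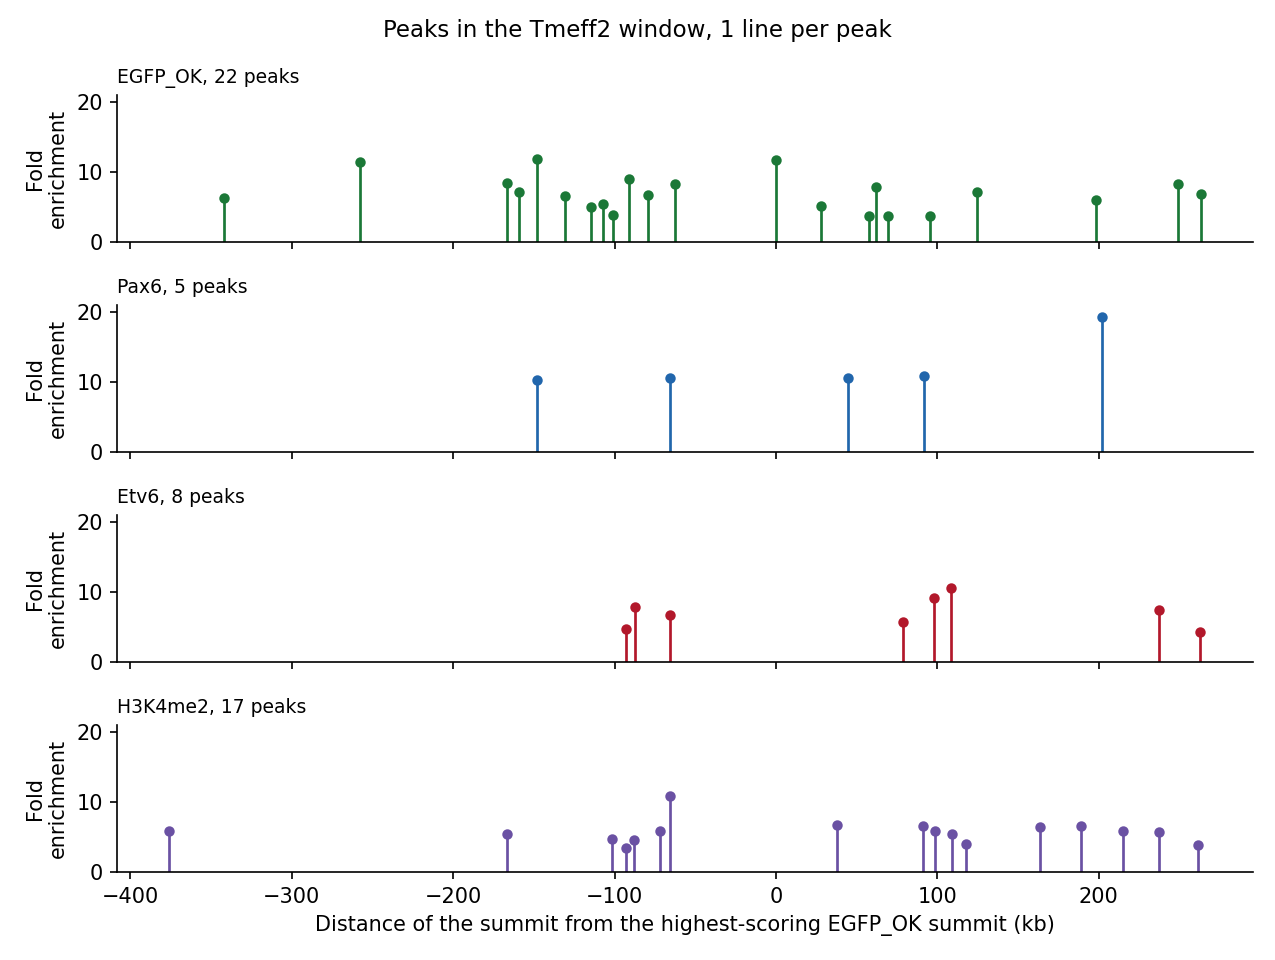
Peaks in the Tmeff2 window by library, with the distance of each summit from the highest-scoring EGFP_OK summit (51085107) in kb on the x axis and the authors' fold enrichment on the y axis, 1 line per peak. The 22 EGFP_OK peaks run from 3.70-fold to 11.93-fold, and the single highest line, 19.30-fold, is a Pax6 peak at 201.7 kb.

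At Tmeff2 the EGFP_OK peaks were more even. They had 25 to 133 tags, with a median of 59, against 22 to 393 and a median of 48.5 at Epha7, and 47 in the whole list. The 5 with most tags held 37.8% of the tags in EGFP_OK peaks at Tmeff2 and 56.3% at Epha7. Peaks among the highest 10% of the list by score numbered 1 of 22 at Tmeff2 (4.55%, exact 95% binomial interval 0.115 to 22.8) and 6 of 20 at Epha7 (30%, 11.9 to 54.3). The intervals overlap and reflect counting error alone, and peaks close to each other are not independent. Peaks of at least 100 tags, a limit set after the values were seen, numbered 5 of 22 and 9 of 20, against 12.8% of the list.

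The highest-scoring Tmeff2 peak was chr1:51084440-51085861, alone in its surroundings, with 116 tags, 11.80-fold and a score of 356.74. The highest fold, 11.93, belonged to chr1:50936405-50937507 with 45 tags, and the next after these were chr1:50826615-50827830 (63 tags, 11.38-fold), chr1:50993008-50994458 (100 tags, 8.98-fold) and chr1:50917850-50919266 (91 tags, 8.39-fold). The cluster of 4 had 37, 48, 50 and 100 tags in chromosome order, at 4.99-fold, 5.49-fold, 3.84-fold and 8.98-fold. The cluster of 3 had 133, 94 and 73 tags at 3.70-fold, 7.88-fold and 3.80-fold. Its first peak, chr1:51140647-51143488, was the widest EGFP_OK peak of the window at 2842 bp and had the most tags and the lowest fold there.

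**Figure D4:**
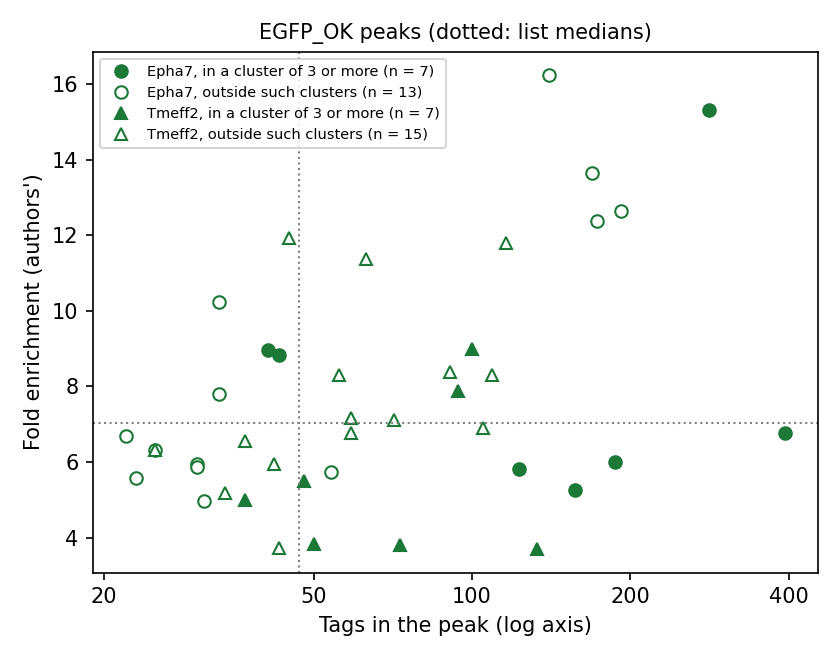
Tags in each EGFP_OK peak (x axis, log scale) against the authors' fold enrichment (y axis), circles for Epha7 and triangles for Tmeff2, filled for summits in clusters of at least 3. Dotted lines are the list medians, 47 tags and 7.04-fold. Filled circles at 123 to 393 tags lie at 5.27-fold to 6.78-fold, apart from the peak at 282 tags, and open circles above 100 tags at 12.39-fold to 16.24-fold.

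The EGFP_OK peaks at either locus were near the list in median fold, width and score. Median folds were 6.74 at Epha7 (95% interval of the median 5.86 to 10.23) and 6.84 at Tmeff2 (5.18 to 8.31), against 7.04. Median widths were 1186 and 1216 bp, against 1143 bp, and median scores 96.2 and 95.9, against 92.75. At Epha7 9 of 20 peaks and at Tmeff2 10 of 22 exceeded the list's median fold. Its median tags were exceeded by 10 of 20 and 15 of 22, its median width by 11 and 15, and its median score by 10 and 12.

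Most EGFP_OK summits at both loci lay outside H3K4me2. The summit was inside an H3K4me2 peak for 2 of 20 at Epha7 (10.0%, 1.23 to 31.7) and 3 of 22 at Tmeff2 (13.6%, 2.91 to 34.9), against 26.9% of the whole list. Over both loci this was 5 of 42, or 11.9% (3.98 to 25.6). Both single-locus intervals hold the share of the list, and the joint one ends just below it. With every list limited to scores of at least 100, the shares were 20% at Epha7 and 22.2% at Tmeff2, against 20.9% of the list and rested on 2 of 10 and 2 of 9 peaks. With each list cut to its 16604 highest-scoring peaks they were 0% and 7.69%, against 12.1%. That setting left no H3K4me2 peak in the Epha7 window, so the share there could only be 0%. The order of loci and list changed with scores of at least 100 and not with equal list lengths. H3K4me2 was not used to choose the windows, but the absence of other FLAG peaks was, and with 1 library per group no test over samples was possible.

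The loci differed in how far the unmarked summits lay from the mark. The median distance to the nearest H3K4me2 peak was 65.7 kb for the 18 unmarked summits at Epha7, with the farthest at 130 kb. At Tmeff2 it was 10.4 kb for 19 summits, with the farthest at 90.5 kb, and over the list it was 17.6 kb. The Epha7 window had fewer H3K4me2 peaks per Mb, 11.2 against 26.2 at Tmeff2 and 19.2 in the genome.

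Marked EGFP_OK sites at Epha7 were the peaks with summits at 29018824 and 29029439, the ones with most tags and the highest score. The H3K4me2 peak under the first, chr4:29016112-29019411, was the widest of the window, at 3300 bp with 225 tags and 4.01-fold, and its summit lay 1750 bp from the EGFP_OK summit. Under the second, chr4:29028582-29030894 was the highest-scoring H3K4me2 peak of the window (score 228.41). At Tmeff2 the marked sites had 91, 50 and 105 EGFP_OK tags, with summits at 50918630, 50984066 and 51348337. At the first of these the EGFP_OK and H3K4me2 summits lay 21 bp apart, at the second 512 bp and at the third 1943 bp.

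Median H3K4me2 widths were 1788 bp at Epha7, 1549 bp at Tmeff2 and 1628 bp in the list. At Tmeff2 the highest-scoring H3K4me2 peak, chr1:51019037-51020361 (score 411.08), reached 10.82-fold with 147 tags. The next by score were chr1:50982270-50987006 (372.71), 4737 bp wide with 518 tags, and chr1:51344814-51349921 (308.23), the widest at 5108 bp with 562 tags. These hold the EGFP_OK summits at 50984066 and 51348337. The fourth and the fifth were chr1:50995415-50998637 (304.55), with 300 tags, and chr1:51321259-51322863 (234.09), with 106 tags. At Epha7, besides the marked EGFP_OK sites, the highest by score were chr4:28710565-28712352 (107 tags, 5.82-fold), chr4:28741198-28743937 (266 tags, 4.14-fold) and chr4:28738130-28740162 (210 tags, 3.12-fold). None of these 3 overlapped an EGFP_OK peak, and the nearest EGFP_OK summit was between 77606 and 85124 bp away.

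The share of H3K4me2 peaks that held an EGFP_OK summit was 2 of 9 at Epha7 and 3 of 17 at Tmeff2, against 15.3% in the genome. Over both loci it was 19.2% (6.55 to 39.4), an interval that holds the genome share. An Etv6 summit was in 2 of 9 and 7 of 17, against 31.9%, and any FLAG summit in 3 of 9 and 10 of 17, against 40.3%. Peaks of the mark wider than 3 kb numbered 1 of 9 and 3 of 17, against 14.4%.

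**Figure D5:**
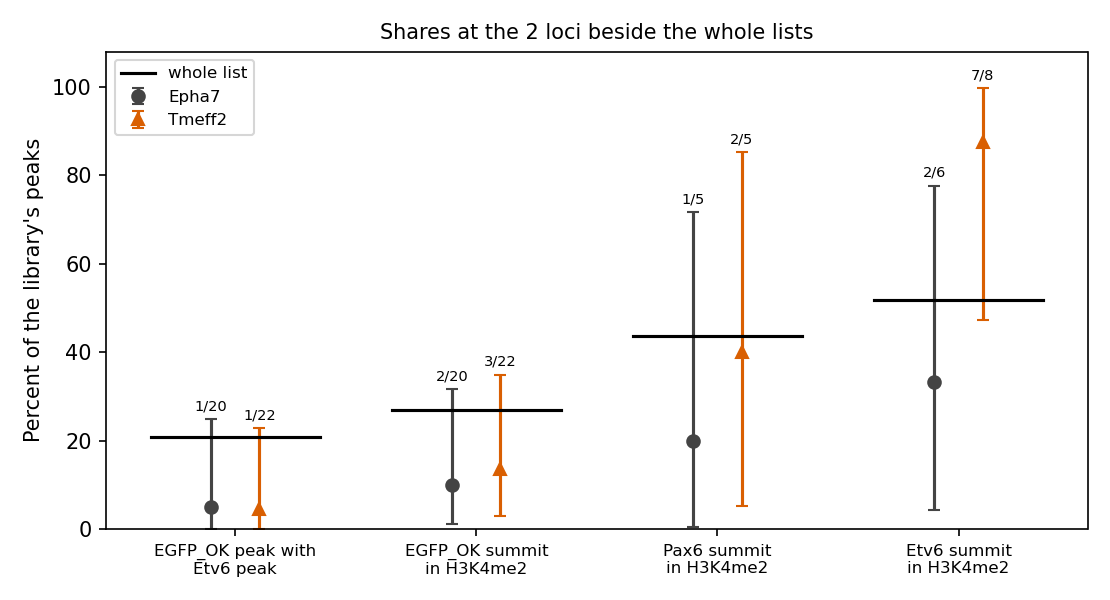
Share of peaks at Epha7 (circles) and Tmeff2 (triangles) in percent (y axis) for 4 overlaps (x axis), with exact 95% binomial intervals as error bars, peak numbers above them and the share of the whole list as a black line. Etv6 summits lie in H3K4me2 at 7 of 8 sites at Tmeff2, and EGFP_OK summits at 3 of 22. The windows were chosen for few Pax6 or Etv6 peaks, so the overlap of EGFP_OK with Etv6 is a description and no test.

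Few EGFP_OK peaks at the loci met a peak of the other factors. The windows were chosen for many EGFP_OK and few Pax6 or Etv6 peaks, so these shares are descriptions. A Pax6 peak overlapped 1 of 20 EGFP_OK peaks at Epha7 (5.0%, 0.127 to 24.9) and 1 of 22 at Tmeff2 (4.55%, 0.115 to 22.8), against 11.7% of the list. For Etv6 the numbers were also 1 of 20 and 1 of 22, against 20.9%. Over both loci each factor met 2 of 42 (4.76%, 0.582 to 16.2). No interval is read against the list shares, because the choice of windows had already used these peaks. The Epha7 peak was in each case the site shared by all lists. At Tmeff2, chr1:50936405-50937507 met a Pax6 peak (22 tags, 10.32-fold) whose summit lay 21 bp from that of EGFP_OK, with no Etv6 peak and no H3K4me2. The other, chr1:51347055-51348932 (105 tags, 6.90-fold), met an Etv6 peak (75 tags, 4.28-fold) inside the widest H3K4me2 peak, with summits 733 bp apart. EGFP_OK peaks with neither another FLAG peak nor a summit in H3K4me2 numbered 18 of 20 and 18 of 22, against 66.2% of the list.

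Etv6 summits lay mostly in the mark at Tmeff2 and mostly outside it at Epha7, with intervals that overlap. The Etv6 summit lay in H3K4me2 at 7 of 8 sites at Tmeff2 (87.5%, 47.3 to 99.7) and at 2 of 6 at Epha7 (33.3%, 4.33 to 77.7), against 51.9% of the Etv6 list, which both intervals hold. The Tmeff2 sites in the mark, in chromosome order, had summits at 50992360, 50997713, 51019600, 51182871, 51193821, 51322127 and 51347604. They had 31, 48, 68, 51, 44, 64 and 75 tags. Their folds were 4.69, 7.92, 6.75, 9.12, 10.60, 7.46 and 4.28 in that order, and the H3K4me2 summits lay 7, 274, 60, 406, 520, 67 and 1210 bp away. The remaining one, at 51163602, had 41 tags at 5.78-fold.

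EGFP_OK peaks lay beside several of these sites without meeting them. From the Etv6 summits at 50992360, 51019600 and 51182871 the nearest EGFP_OK summit was 1446, 2658 and 2424 bp away. At Epha7 the Etv6 summits were at 28739959 (44 tags, 6.36-fold), 28877864 (35 tags, 7.65-fold), 28974264 (67 tags, 8.15-fold), 29029593, 29128207 (42 tags, 8.02-fold) and 29259272 (36 tags, 5.99-fold). The first lay 163 bp from an H3K4me2 summit, and the fourth at the shared site was the other one in the mark. An EGFP_OK summit lay 3384 bp from the second and 5099 bp from the fifth.

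Pax6 peaks at the loci rested on few tags. Those at Epha7 had 10, 11, 11, 24 and 33 tags, with summits at 28683350, 28793919, 28800046, 28974309 and 29029706, and folds of 9.88, 11.88, 9.24, 11.13 and 14.07. Those at Tmeff2 had 22, 19, 10, 15 and 21 tags, with summits at 50936893, 51019540, 51129794, 51176741 and 51286843, and folds of 10.32, 10.66, 10.56, 10.83 and 19.30. The first 3 at Epha7 and the third at Tmeff2 stood at or next to the lowest tag count the Pax6 list holds, 10. The Tmeff2 peak at chr1:51286375-51287280 was the exception in height, with a score of 129.10 in the highest 12.7% of the list. It overlapped no other peak, and the nearest EGFP_OK summit lay 3680 bp and the nearest Etv6 summit 35284 bp away.

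Pax6 sites here seldom carried an Etv6 peak. Of the 10 Pax6 peaks, 3 met an Etv6 peak (30%, 6.67 to 65.2), as did 72.6% of the whole Pax6 list. Of the 14 Etv6 peaks, 3 met a Pax6 peak, as did 38.9% of the Etv6 list. The 3 were at 28974309, 29029706 and 51019540, with 24, 33 and 19 Pax6 tags. The Etv6 summits were 45, 113 and 60 bp away. The site at 28974309 lay outside H3K4me2 and 35708 bp from the nearest EGFP_OK summit. The 7 without Etv6 had 10 to 22 tags, against a median of 19 in the Pax6 list. The share was not matched to the list for tags, and the part of weak peaks in it was not tested. The windows were chosen for few Pax6 or Etv6 peaks, so this share is a description. Summits in H3K4me2 numbered 3 of the 10, against 43.7% of the Pax6 list.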

How the data were processed

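Each of the 4 libraries has 1 peak list. Per the file headers, the authors called peaks with MACS 1.4.2 on each library alone, without a control, at a p cutoff of 1e-05 and with 1 tag kept per position. The submitters' processing notes also name CASAVA 1.8.1, BWA 0.6.2 and mm9. The deposited tags are raw counts per peak after duplicate removal. The score, per the file headers, is 10 times the −log10 of the p-value, and the fold is a ratio to local background. Both are the authors' own and rank or describe peaks within a list.

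Members were found by summit position with pandas 2.3.3, numpy 2.4.6 and scipy 1.17.1 under Python 3.11.15, and the overlap and linking steps were tested on simulated data. Peaks of 2 FLAG lists were called overlapping at 1 bp or more. Chromosome Y and unplaced sequences were left out (38 to 111 peaks per list). Windows of 100 kb were tiled from position 1 of each chromosome, from the first to the last window with a peak. Share intervals are exact (Clopper-Pearson) 95% binomial ones, and those of medians rest on order statistics. The rule for named regions took, per locus, the 5 EGFP_OK peaks of highest fold, the highest score, the top of each cluster of 5 or more summits, all Pax6 and Etv6 peaks, the 5 highest-scoring H3K4me2 peaks and the widest, and EGFP_OK peaks meeting another FLAG list. Members of the smaller clusters and other peaks were named after their values were seen. Members and rules were chosen with earlier results of these data known. Counts of Eph and ephrin genes were planned only for an mm9 annotation and were not run. Alternatives were a score of at least 100, equal list lengths, other overlap rules, linking distances and window edges.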

Additional observations from a re-analysis of the deposited data

How the results depend on the processing

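Of 122 values for 28 results under other settings, 87 stayed within 1.5 times the reported number or within the interval of the reported value, and 35 did not. Each library is alone in its group, so no replicate was left out. No paired analysis was possible because each group has 1 library.

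With every list limited to scores of 100 or more, EGFP_OK peaks numbered 10 at Epha7 and 9 at Tmeff2, Pax6 1 and 1, and Etv6 2 and 5. The largest number of EGFP_OK peaks in 100 kb was 6 at Epha7, within 1.5 times of 9, and 4 at Tmeff2. Median folds were 10.68 and 8.39, and median scores 401.0 and 177.2. The cut acts on the score itself, so higher median scores follow from it. List medians under this cut were not computed for fold, score, tags or width. At Epha7 the median tags were 171 and the median width 1713 bp, and at Tmeff2 the median gap was 59.48 kb. Summits in clusters of at least 3 numbered 3 at Epha7 and 0 at Tmeff2, with 0 such clusters there. The share with another FLAG peak at Tmeff2 was 0%, against 13.8% of the list. The share in H3K4me2 was 20% at Epha7 and 22.2% at Tmeff2, against 20.9% of the list.

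With each list cut to its 16604 highest-scoring peaks, EGFP_OK peaks numbered 11 and 13, Etv6 2 and 5, and H3K4me2 0 and 4, at Epha7 and Tmeff2. The uncut lists held 28338, 30931 and 49457 peaks in that order of libraries. With 0 H3K4me2 peaks left there, the share of EGFP_OK in H3K4me2 at Epha7 could only be 0%, against 12.1% of the list. Clusters of at least 3 numbered 2 at Epha7 and 0 at Tmeff2, where 0 summits were in one, the median gap was 35.87 kb and 100 kb held at most 4.

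Linking at 5 kb gave 0 clusters of at least 3 and 0 summits in them at either locus. Linking at 20 kb put 13 Tmeff2 summits in such clusters. Other overlap rules and window edges moved no result past these limits.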
